A study of Rattus norvegicus with 8 samples.

Results

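Axon guidance genes of the semaphorin, Slit, netrin and Eph families were examined in retinal ganglion cells (RGCs), the neurons whose axons form the optic nerve. Members were taken by symbol from a gene table published with the study. The part of that table used here pairs 1998 of the 32623 Ensembl gene IDs of the count files with a symbol. The rule covered the semaphorins, plexins, neuropilins, Slits, Robos, netrins, Unc5 receptors, Dcc, ephrins and Eph receptors, and it found 6 genes, Sema5b, Sema6a, Slit2, Ntn1, Unc5b and Epha5. Plexins, neuropilins, Robos, Dcc and ephrins were not analysed here. Neither were the other semaphorins, Slits, netrins, Unc5 receptors and Eph receptors, so counts over these 6 genes do not describe whole families. RNA came from RGCs of Sprague Dawley rats taken on embryonic day 21 (E21) or on postnatal day 11 (P11), with 4 libraries per stage that were each prepared from an independent litter, so every library pools the cells of several animals. The sources give no engineered allele and no treatment for these rats, and both stages went through the same immunopanning, in which an antibody against macrophages removed cells and an antibody against Thy1 then retained RGCs. The amount of papain used to dissociate the retina differed between the stages. Between 13899299 and 20116017 reads were counted on genes per library.

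Guidance molecules steer a growing axon by attracting or repelling its growth cone. Semaphorins are secreted or membrane-bound ligands, most of them repellent, that act through plexins. Slits are secreted and repel axons through Robo receptors, while netrins attract axons through Dcc and repel them where an Unc5 receptor is present. Eph receptors are tyrosine kinases that bind ephrins on neighbouring cells, and their graded levels across the retina order the RGC axons on their targets in the brain.

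All 6 genes passed the filter on low counts and were tested with the quasi-likelihood test of edgeR, with Benjamini-Hochberg adjustment over all genes. A gene was called if it changed by more than 1 on the log2 scale with an adjusted p below 0.01. Fold changes are given as E21 relative to P11, so negative values mark genes with a higher level at P11. Sema5b and Unc5b passed, and each was higher at P11. This makes 2 of 6 genes called higher at P11, beside 16.5% of the 14043 genes tested, and 0 of 6 called higher at E21, beside 8.16%. In either direction the background was 24.7%, and among the genes with a symbol it was 23.8%, with 7.76% higher at E21 and 16.1% higher at P11. Without the fold threshold, 2 genes were higher at E21 (beside 33.8% of all genes) and 3 higher at P11 (beside 34.6%), so that 5 of 6 differed beside 68.4%, Ntn1 being the exception. For the same 5 genes the libraries of the stages did not overlap, which held for 71.3% of all genes tested. With 6 members, these shares do not set the guidance genes apart from the rest. The median log2 fold change was -0.96 over the 6 genes and 0 over all genes tested.

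Promoter sequence was looked up for the members in RefSeq (assembly GRCr8) to show the start regions of the genes that were called, and 4 of the 6 had an entry, Sema5b, Sema6a, Unc5b and Epha5. The 250 bases before the start site of Sema5b (chr11:78730590-78730839, minus strand) and of Unc5b (chr20:29307271-29307520, minus strand) are given 5′ to 3′, with CG dinucleotides in capitals.
Sema5b: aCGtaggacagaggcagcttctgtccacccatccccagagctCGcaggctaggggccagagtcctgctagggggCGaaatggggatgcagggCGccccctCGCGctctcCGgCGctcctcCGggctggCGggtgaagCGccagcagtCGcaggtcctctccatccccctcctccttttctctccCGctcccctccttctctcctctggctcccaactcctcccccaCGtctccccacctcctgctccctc
Unc5b: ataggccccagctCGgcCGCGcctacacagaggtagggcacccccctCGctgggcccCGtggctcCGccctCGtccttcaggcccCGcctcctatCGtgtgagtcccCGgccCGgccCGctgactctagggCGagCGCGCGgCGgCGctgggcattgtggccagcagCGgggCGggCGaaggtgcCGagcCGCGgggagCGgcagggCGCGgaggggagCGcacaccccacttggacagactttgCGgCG
Unc5b had 30 CG dinucleotides and a GC content of 75.2%, and Sema5b had 14 and 68.0%. The medians over the 33469 promoter entries were 5 CG dinucleotides and 51.2% GC. The members that were higher at E21 had 10 (Sema6a) and 8 (Epha5) CG dinucleotides, with a GC content of 52.0% and 47.6%. Their CG counts were above the median too. Slit2 and Ntn1 had no entry, and a link between these features and the direction of change was not tested. The cAMP response element TGACGTCA, the site of the activity-regulated factor CREB, its core TGACG, which the longer motif contains, and a MEF2 pattern (CTA, any 4 bases, TAG) were searched on both strands. None of these letters occurred in the 250 bases of any of the 4 members, while 1.59%, 18.2% and 3.41% of all entries held them. No match says only that these letters are not in this window.

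**Figure D1:**
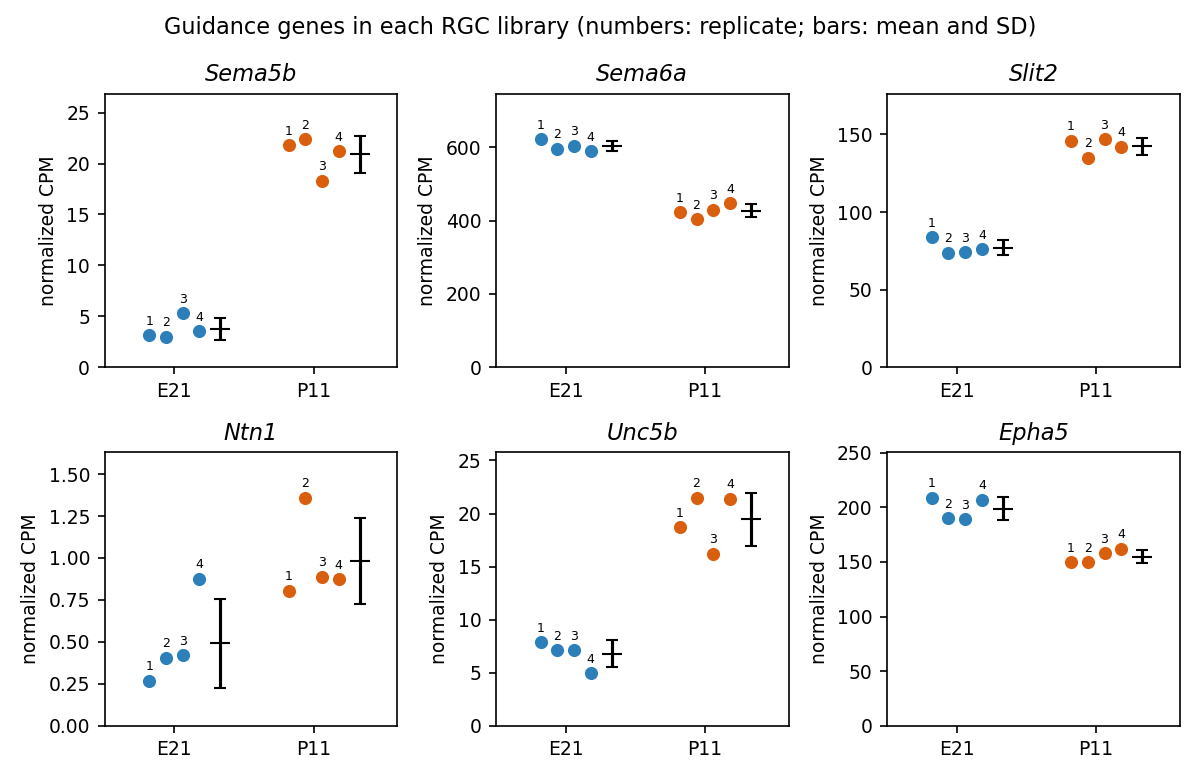
Expression of the 6 guidance genes in each library. The y axes give CPM (counts per 1000000 counted reads after TMM normalization), each starting at 0, points are libraries with their replicate number, and the bars to the right of each group are the mean and SD over 4 libraries. For all genes but Ntn1 the libraries of the stages lie apart, with Sema5b, Slit2 and Unc5b higher at P11 and Sema6a and Epha5 higher at E21.

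Sema5b (ENSRNOG00000002238) encodes a transmembrane semaphorin with thrombospondin repeats that is known to restrain neurite growth in the retina. The E21 libraries held 47, 59, 101 and 48 counts for replicates 1 to 4, or 3.14, 2.99, 5.29 and 3.51 CPM (counts per 1000000 reads counted on genes, after TMM normalization). The P11 libraries held 324, 379, 289 and 389 counts, or 21.8, 22.4, 18.3 and 21.2 CPM. All P11 libraries were above all E21 libraries, and the lowest P11 value was 3.46 times the highest E21 value. For Sema5b the means were 3.73 ± 1.06 CPM at E21 and 20.9 ± 1.80 CPM at P11 (SD, n = 4), 5.55-fold higher at P11 by the fit (log2 fold change -2.47 with an SE of 0.15, edgeR adjusted p = 3.65e-10). The 95% interval of this log2 fold change ran from -2.78 to -2.16. E21 replicate 3 was the high library of its stage, and without it the log2 fold change was -2.72. Among all genes tested, 820 had a larger log2 fold change towards P11.

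Sema6a (ENSRNOG00000004033), a transmembrane semaphorin that binds A-type plexins and acts in retinal lamination and axon guidance, went the other way. Its E21 libraries were at 622, 596, 604 and 589 CPM and its P11 libraries at 423, 404, 430 and 447 CPM, from between 6295 and 11767 counts per library. Every E21 library was above every P11 library. Means were 603 ± 14.3 CPM at E21 and 426 ± 17.9 CPM at P11 (SD, n = 4), 1.42-fold higher at E21 (log2 fold change 0.50 with an SE of 0.04, edgeR adjusted p = 5.59e-09). This difference was larger than the spread between litters but under the fold threshold, and its interval from 0.42 to 0.59 stayed clear of it. On the RefSeq assembly GRCr8, Sema6a overlaps a protein-coding gene and a pair of long non-coding RNA genes. The strand setting of the counting is not given in the sources used here, so reads shared with such genes could not be separated.

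Slit2 (ENSRNOG00000003840), a secreted repellent that RGCs and other cells of the inner retina are known to make, was at 83.9, 73.7, 74.0 and 76.0 CPM in the E21 libraries and at 146, 135, 147 and 142 CPM in the P11 libraries. Again the stages did not overlap, and the lowest P11 library was 1.61 times the highest E21 library. Means were 76.9 ± 4.80 CPM and 143 ± 5.34 CPM (SD, n = 4), 1.86-fold higher at P11 (log2 fold change -0.89 with an SE of 0.05, edgeR adjusted p = 4.02e-11). With an interval from -1 to -0.79 the change lay just under the fold threshold, and across the 17 alternative analyses it stayed between -0.95 and -0.88, never past it.

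Ntn1 (ENSRNOG00000003947) encodes netrin 1, which at the optic disc is known to guide RGC axons out of the eye. It had the fewest reads of the 6 genes, with 4, 8, 8 and 12 counts in the E21 libraries and 12, 23, 14 and 16 in the P11 libraries, or 0.268, 0.405, 0.419 and 0.877 CPM at E21 and 0.806, 1.36, 0.888 and 0.872 CPM at P11. The stages overlapped, since E21 replicate 4 reached the level of P11 replicates 1 and 4. The means were 0.492 ± 0.265 CPM and 0.981 ± 0.255 CPM (SD, n = 4), and the fit gave a log2 change of -1.03 with an SE of 0.35 (edgeR adjusted p = 0.0141). With this adjusted p Ntn1 did not pass. A two-sided exact permutation test over libraries, on the log2 of CPM with 0.5 added, gave p = 0.0857. The added 0.5 is close to the E21 mean and shrinks the difference, so this p is not for the same quantity. The interval of the fit, from -1.78 to -0.28, held changes on either side of the fold threshold. The call turned on E21 replicate 4, without which the log2 fold change was -1.38 and passed (edgeR adjusted p = 0.00290), while without P11 replicate 2 it was -0.85 (edgeR adjusted p = 0.0591). Counting alone would give a coefficient of variation of 35.4% at E21 where 53.9% was measured, and 24.8% at P11 where 26% was measured. All libraries lay above 3 counts, the floor taken for detection, which is worth 0.152 to 0.219 CPM depending on the library. The sources used here name no molecular identifiers, so reads are not taken as separate molecules and such floors cover counting error only.

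Unc5b (ENSRNOG00000000567) encodes a netrin receptor that mediates repulsion in neurons and is also a well-known receptor of endothelial cells. It was at 7.89, 7.14, 7.13 and 4.97 CPM in the E21 libraries, from 118, 141, 136 and 68 counts, and at 18.7, 21.5, 16.2 and 21.4 CPM in the P11 libraries, from 279, 364, 255 and 393 counts. No library of the stages overlapped, the lowest P11 value being 2.05 times the highest E21 value, and E21 replicate 4 was the lowest of all. Means were 6.78 ± 1.26 CPM at E21 and 19.5 ± 2.54 CPM at P11 (SD, n = 4), 2.85-fold higher at P11 (log2 fold change -1.51 with an SE of 0.13, edgeR adjusted p = 2.02e-08). The interval ran from -1.78 to -1.24, and without E21 replicate 4 the log2 fold change was -1.40. Under glmTreat of edgeR, a stricter test that asks whether a change exceeds the threshold and that called 16.5% of all genes, Unc5b kept its call (edgeR adjusted p = 0.000742), as did Sema5b (edgeR adjusted p = 7.88e-08). Endothelial markers were also higher at P11 in sum, at 19.9 to 23.9 CPM against 28.9 to 42.3 CPM, and their part in the Unc5b result was not tested.

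Epha5 (ENSRNOG00000002024), an Eph receptor that binds A-type ephrins and is graded across the retina, was at 209, 190, 189 and 207 CPM in the E21 libraries and at 150, 150, 158 and 162 CPM in the P11 libraries. The stages lay close together without overlapping, and the lowest E21 library was 1.17 times the highest P11 library. Means were 199 ± 10.9 CPM and 155 ± 5.90 CPM (SD, n = 4), 1.28-fold higher at E21 (log2 fold change 0.36 with an SE of 0.05, edgeR adjusted p = 1.94e-06). It was the smallest change among the members, and its interval from 0.26 to 0.46 lay well under the fold threshold. Levels were not compared between genes, because the lengths of the gene models used for counting were not used here.

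Ratios within a library do not depend on how libraries are scaled against each other, and 4 were compared by a two-sided exact permutation test over libraries, whose smallest p for 4 against 4 is 0.0286. The count of Sema5b relative to Sema6a, as log2 with 0.5 added to each count, was -7.61, -7.63, -6.83 and -7.38 in the E21 libraries and -4.28, -4.17, -4.55 and -4.40 in the P11 libraries. The groups did not overlap and the ratio was 8.07-fold higher at P11, a difference of -3.01 ± 0.20 (standard error, n = 4 per stage) on the log2 scale (exact permutation p = 0.0286, 0.0571 after Benjamini-Hochberg adjustment over the 4 ratios). Among the receptors, Unc5b relative to Epha5 was -4.89 ± 0.32 at E21 and -3 ± 0.21 at P11 (SD, n = 4), again without overlap and 3.70-fold higher at P11 (exact permutation p = 0.0286, 0.0571 after adjustment). The genes of each pair already lay apart in opposite directions, so the lack of overlap of these ratios and the smallest p followed from their levels. These ratios thus add no separate test of a difference. Neither passed a threshold of 0.05 after adjustment. With the ratios to Ntn1 far above the smallest p, the adjusted value could not go below 0.0571.

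The ratios to Ntn1 were not distinguishable between the stages. Unc5b relative to Ntn1, receptor to ligand, had a log2 ratio of 3.81 ± 0.96 at E21 and 4.29 ± 0.29 at P11 (SD, n = 4; difference -0.48, standard error 0.50, exact permutation p = 0.543, 0.724 after adjustment). E21 replicate 4, with the lowest Unc5b and the highest Ntn1 of its stage, was at 2.45, while the other E21 libraries lay between 4.01 and 4.72. Slit2 relative to Ntn1, the secreted cues, was at 7.32 ± 0.72 and 7.17 ± 0.38 (SD, n = 4; difference 0.16, standard error 0.41, exact permutation p = 0.800, and 0.800 after adjustment). With so few Ntn1 counts a change in these ratios could have gone undetected at this depth.

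**Figure D2:**
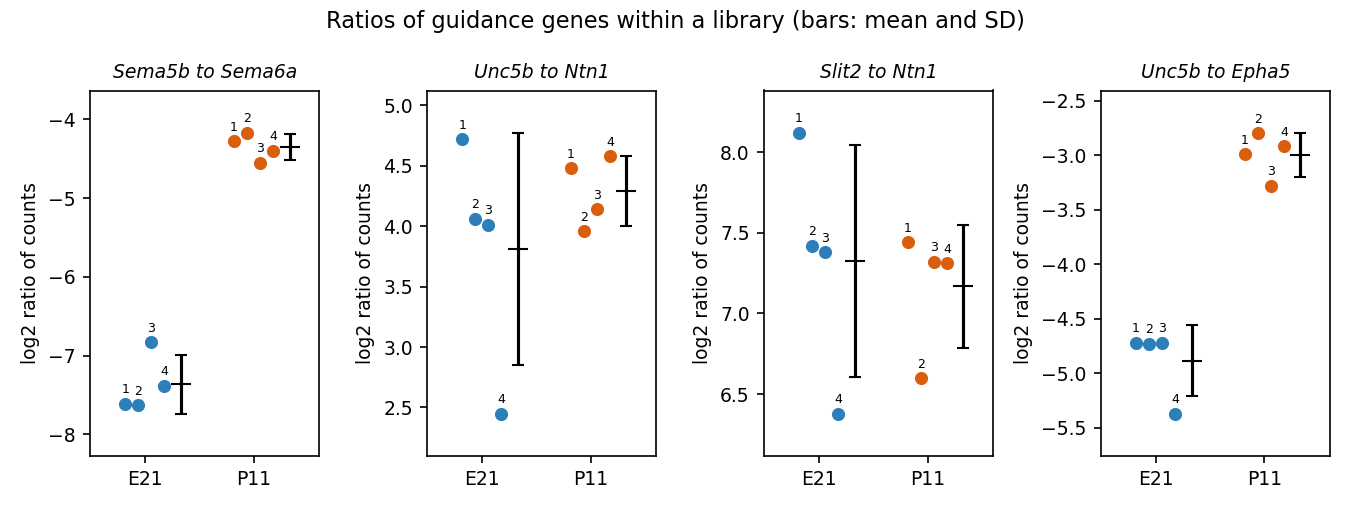
Log2 ratios of the counts of guidance genes within each library, with 0.5 added to each count. Points are libraries with their replicate number, and the bars are the mean and SD over 4 libraries. Sema5b to Sema6a and Unc5b to Epha5 separate the stages, while the ratios to Ntn1 overlap, with E21 replicate 4 at 2.45 for Unc5b to Ntn1.

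Genes that act with guidance receptors were listed from textbook knowledge as surface partners and intracellular effectors. Only genes with a symbol could be listed, and earlier results of these data were known, so the lists are neither complete nor independent. Of the 9 surface partners 8 had enough counts to test, and 1 was called higher at E21 and 3 higher at P11, beside 8.16% and 16.5% of all genes tested. Cxcr4, the receptor of the chemokine Cxcl12 that modulates the response of RGC axons to Slit, was at 36.2, 32.3, 34.3 and 43.8 CPM in the E21 libraries and 1.07, 1.54, 0.888 and 2.83 CPM in the P11 libraries. Its log2 change of 4.48 (SE 0.23, edgeR adjusted p = 5.04e-08) was the largest of the partners higher at E21. Tnr, an extracellular matrix protein, rose from 5.81 ± 1.04 CPM to 143 ± 11.1 CPM at P11 (log2 fold change -4.61, edgeR adjusted p = 1.35e-14). The adhesion molecules Alcam, known for its part in RGC axon growth, and Cntn1 rose from 20.6 ± 1.31 to 75.5 ± 5.53 CPM and from 236 ± 14.5 to 746 ± 19.9 CPM (log2 fold changes -1.88 and -1.66, edgeR adjusted p = 1.50e-13 and 1.23e-14). The other tested partners, Boc, Flrt2, Nrcam and Rtn4rl1, stayed under the fold threshold with log2 fold changes between -0.90 and 0.29, and Eva1c had at most 2 counts in any library. Flrt2, which encodes a ligand of Unc5 receptors, had a log2 fold change of -0.34 beside the -1.51 of Unc5b. The median log2 fold change of the tested surface partners was -0.62.

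All 18 intracellular effectors were tested, of which 2 were called higher at E21 and 1 higher at P11, beside the same 8.16% and 16.5%. Mical1, an oxidase that passes semaphorin signals from plexins to actin, went from 19.7 ± 0.638 CPM down to 7.88 ± 0.947 CPM (SD, n = 4; log2 fold change 1.32, edgeR adjusted p = 8.70e-10). Kalrn, a guanine nucleotide exchange factor downstream of Eph receptors, fell from 190 ± 17.9 CPM to 81.9 ± 4.59 CPM (log2 fold change 1.21, edgeR adjusted p = 2.11e-10). Baiap2, an adaptor between Rac and actin, rose from 1.49 ± 0.436 to 9.58 ± 1.95 CPM (log2 fold change -2.71, edgeR adjusted p = 3.49e-09). For each of these genes the libraries of the stages did not overlap, as was the case for 71.3% of all genes tested. Under the fold threshold but at an adjusted p below 0.01, 7 of 18 effectors were higher at E21 and 4 higher at P11, beside 25.6% and 18.1% of all genes tested under this rule. The median log2 fold change of the effectors was 0.22. Rac1, the GTPase on which many guidance receptors converge, was at 297 ± 16.9 and 316 ± 17.9 CPM (SD, n = 4; log2 fold change -0.09, edgeR adjusted p = 0.114).

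**Figure D3:**
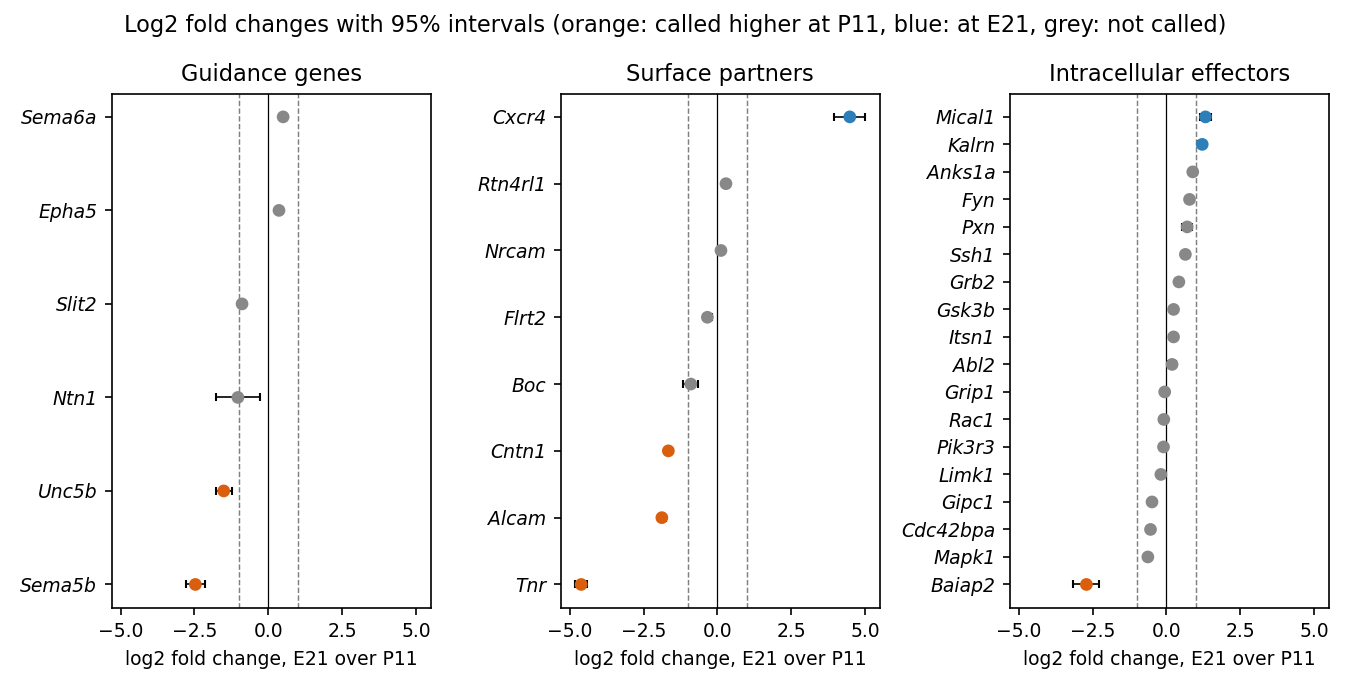
Log2 fold changes of E21 relative to P11 for the 6 guidance genes, 8 surface partners and 18 intracellular effectors, with 95% intervals from the edgeR fit. Dashed lines mark the fold threshold at -1 and 1, and the colour gives the call (orange higher at P11, blue higher at E21, grey not called). Sema5b and Unc5b lie beyond the threshold on the P11 side, Ntn1 straddles it with the widest interval of the 6, and Slit2 lies just inside it.

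The genes whose pattern was most like each member were found by the Pearson correlation of log2 CPM over the 8 libraries, which share the difference between the stages, among 1778 other genes with a symbol. For Sema5b they were Tceal1 (r = 0.992) and Wdr19 (r = 0.991), for Unc5b Map6d1 (r = 0.988) and Itpr2 (r = 0.987), and for Slit2 Vmp1 (r = 0.998) and Slc35f1 (r = 0.996). For Sema6a they were Rbmx (r = 0.998) and Ergic1 (r = 0.996), and for Epha5 Hip1 (r = 0.988) and the guidance effector Kalrn (r = 0.986). Ntn1 had no gene above 0.95, the closest being Ildr1 (r = 0.938) and Mfsd11 (r = 0.937), whereas between 171 and 355 genes exceeded 0.95 for each of the other members. Such values are a description of 2 groups of 4 libraries.

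Markers of other cells were set beside these results. Only 3 of 12 RGC markers could be paired with an ID, Rbfox3, Uchl1 and Gap43, and all were abundant at both stages, with a summed level of 3350 to 3490 CPM at E21 and 2040 to 2170 CPM at P11. Most of this difference came from Gap43, a growth-associated protein of extending axons, which was called higher at E21 (1710 ± 44.0 against 622 ± 30.8 CPM, log2 fold change 1.46). Uchl1 was at 1600 ± 26.5 and 1380 ± 69.0 CPM and Rbfox3 at 119 ± 6.77 and 126 ± 7.75 CPM (SD, n = 4), and neither was called. The defining RGC genes Rbpms, Pou4f1 and Thy1 were not analysed here. Mural cell markers (Rgs5, Notch3 and Higd1b, 3 of 4 paired) summed to between 3.09 and 5.26 CPM at E21 and between 278 and 554 CPM at P11, and all 3 were called higher at P11. Fibroblast markers (Col1a1 and Col3a1) summed to between 1.67 and 3.41 CPM at E21 and between 137 and 258 CPM at P11, both called. Endothelial markers (4 of 6 paired) summed to between 19.9 and 23.9 CPM at E21 and between 28.9 and 42.3 CPM at P11, mostly from Notch4, which did not pass (log2 fold change -0.12), while Flt1 and Flt4 rose from at most 0.511 CPM in any E21 library to between 2.62 and 7.74 CPM in the P11 libraries.

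Among the P11 libraries, mural markers were lowest in replicate 3 (278 CPM), followed by replicates 1 (373 CPM), 2 (461 CPM) and 4 (554 CPM), and Unc5b was at 16.2, 18.7, 21.5 and 21.4 CPM in the same order. In that order Sema5b was at 18.3, 21.8, 22.4 and 21.2 CPM. Slit2, with 147, 146, 135 and 142 CPM, and Ntn1, with 0.888, 0.806, 1.36 and 0.872 CPM, were not lowest in replicate 3. Photoreceptor markers (6 of 7 paired, 4 called higher at P11) summed to between 6.99 and 8.49 CPM at E21 and between 29.9 and 49.4 CPM at P11. Bipolar markers (4 of 5 paired, 2 tested) summed to between 41.4 and 48.9 CPM at E21 and between 87.2 and 94.4 CPM at P11. This rise came from Prkca, which was called higher at P11 (38.2 ± 2.68 against 87.4 ± 3.23 CPM). Grm6 went the other way, at 5.96 ± 0.589 and 3.37 ± 0.449 CPM, under the fold threshold (log2 fold change 0.82, edgeR adjusted p = 8e-05). Of those with too few counts to test, Lhx4 had a lower mean at P11 and Pcp2 a higher one. Of the amacrine markers (4 of 5 paired), Gad1 was called higher at P11 and Prox1 higher at E21, and their sum, mostly from Pax6 and Barhl2, which RGCs also express, was 534 to 559 CPM at E21 and 422 to 441 CPM at P11. Astrocyte and Müller glia markers (3 of 5 paired) summed to at most 2.62 CPM in any library, with S100b called higher at P11. Sox9 (0.622 CPM at E21, 0.354 CPM at P11) and Gfap (no more than 3 counts) had too few counts to test. Both had a lower mean at P11. Microglia markers (3 of 3 paired) stayed under 1 CPM in sum in every library, and oligodendrocyte lineage markers (3 of 3 paired) summed to between 36.3 and 46.8 CPM at E21 and between 18.8 and 21.4 CPM at P11, with Mog (log2 fold change 1.14) and Pdgfra (1.26) called higher at E21. The part of these other cells in the levels of Sema5b, Slit2, Ntn1 and Unc5b at P11 was not tested, and in bulk RNA a change in the number of cells of a type and a change in RNA per cell cannot be told apart.

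**Figure D4:**
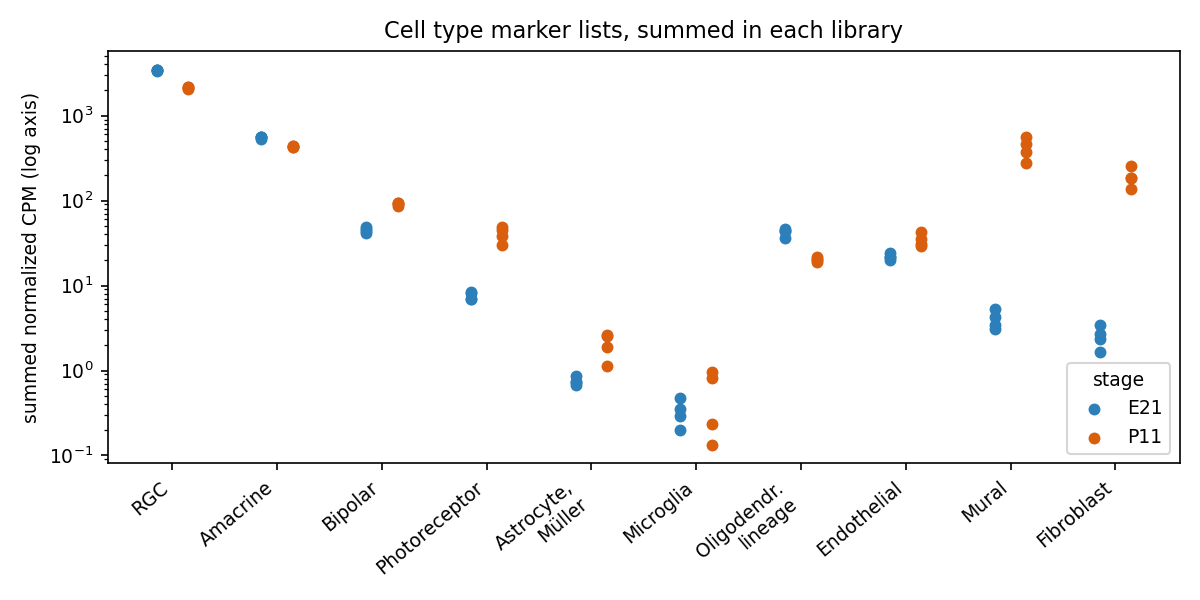
Summed CPM of marker genes of each cell type in each library, on a log axis, with E21 in blue and P11 in orange. Each point is a library. Mural and fibroblast markers show the widest separation between the stages, from at most 5.26 CPM at E21 to at least 278 CPM at P11 for mural markers.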

How the data were processed

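RNA-seq of immunopanned RGCs was analysed from 8 libraries, 4 per stage, each from an independent litter, which the labels assign to E21 or P11. After trimming (Cutadapt 1.16) and quality filtering (PRINSEQ), the authors mapped reads with STAR 2.5.3a to the Rnor_6.0 genome, counted them with HTSeq 0.6.1 and deposited the counts of each Ensembl gene ID without normalization. The annotation release and strand setting are not given in the sources used here. Rows that name no gene were left out of the library sizes. Of all records these were between 31.7% and 42.2% for reads aligned to more than 1 place, between 15.4% and 19.2% for reads outside genes and between 0.61% and 0.805% for ambiguous reads. The share aligned to more than 1 place was 37.4% to 42.2% at E21 and 31.7% to 36.3% at P11, without overlap. Ambiguous reads also separated the stages, with the higher share at P11. The part of these shares in the fold changes was not tested.

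From the counts, genes were filtered with filterByExpr (14043 of 32623 left), normalized by TMM and tested with edgeR 4.0.16 in R 4.3.3 (robust quasi-likelihood test, stage as the only term, Benjamini-Hochberg adjustment over all genes tested). SEs were derived from the log2 fold change and the F statistic (their ratio taken with the square root of F), and 95% intervals use the t distribution with the degrees of freedom of the fit. The test was tried on simulated data first. The members and lists were chosen with earlier results of these data known. The text names all members, every partner past both thresholds, and the 2 genes most like each member. Other genes named, such as Boc, Flrt2, Nrcam, Rtn4rl1, Eva1c, Rac1 and single markers, were chosen after their values were seen. Alternatives were DESeq2 1.42.0, other scalings and filters, glmTreat, a looser adjusted p of 0.05, a block for replicate number, and omission of single libraries. No pair of libraries of a stage matched within sampling noise (chi-square over its degrees of freedom, 2.76 to 7.66). Of the gene table and its columns, only IDs and symbols were used.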

Additional observations from a re-analysis of the deposited data

Results flagged for a closer look

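Within each stage, 20 groups of 4 libraries (6 genes and 4 ratios at each stage) were checked for a library far from the others by Dixon's criterion, and chance flags about 1 in 20 such groups. Ntn1 stood out in P11 replicate 2 at 1.36 CPM, where the other P11 libraries were between 0.806 and 0.888 CPM. In the same library, and from the same Ntn1 count, the log2 ratio of Slit2 to Ntn1 was 6.60, against 7.31 to 7.44 in the others. The log2 ratio of Unc5b to Epha5 was -5.37 in E21 replicate 4, against -4.73 to -4.72 in the other E21 libraries, and this library also had the lowest Unc5b and the highest Ntn1 of its stage.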

How the results depend on the processing

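Across 17 alternative analyses, the count of members called stayed at 0 higher at E21 and at 2 higher at P11, except that Ntn1 made it 3 at an adjusted p below 0.05 (log2 fold change -1.03) and without E21 replicate 4 (-1.38). Sema5b and Unc5b were called in all 17, and Sema6a, Slit2 and Epha5 in none. When single libraries were left out, the log2 fold change ranged from -2.72 to -2.37 for Sema5b, 0.46 to 0.52 for Sema6a, -0.93 to -0.88 for Slit2, -1.38 to -0.85 for Ntn1, -1.60 to -1.40 for Unc5b and 0.33 to 0.38 for Epha5. A minimum of 10 counts in all libraries removed Ntn1 from the test. The 3 partners called higher at E21 and the 4 higher at P11 kept these counts in every alternative. The difference in the Slit2 to Ntn1 ratio ranged from -0.11 to 0.47 with libraries left out and changed sign without E21 replicate 1 (-0.11) and without P11 replicate 2 (-0.03), and the cause was not tested. The other ratio differences kept their sign, ranging from -3.19 to -2.92 for Sema5b to Sema6a, -1.98 to -1.72 for Unc5b to Epha5 and -0.78 to -0.03 for Unc5b to Ntn1. No p was computed for ratios with libraries left out. The labels give same-numbered libraries of the stages nothing in common but the number, and whether they shared a batch is not given. The correlations of their deviations from the stage means ran from -0.03 to 0.08, and 2 of 4 E21 libraries correlated best with their own number. With the replicate number as a block, 1147 and 2316 genes were called higher at E21 and P11 in place of 1146 and 2316, Sema5b was at -2.48 and Unc5b at -1.51, and no member's call changed. Over all genes, testing against the fold threshold (glmTreat) called 668 higher at E21 and 1649 higher at P11. For the ratios 4 pairs cannot go below 0.125. Depth limits Ntn1 most, with at most 23 counts in a library.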
